A study of Rattus norvegicus with 7 samples.

Results

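This account follows 8 genes of the rat colon crypt, Sval1, Scgb1a1, Vsig1, Tgm3, Cd9, Cd24, Ndrg2 and Ckmt1b, out of 16468 genes in the deposited expression table. They were chosen by symbol because their values in the distal library were above those in the proximal library, so their levels and ratios in these libraries describe the choice and support nothing further. Total RNA came from crypts isolated from the distal and from the proximal colon of 14-week-old Sprague Dawley rats, an outbred stock, and the labels name no treatment. A crypt is a pit of the gut lining whose base keeps stem cells and whose wall carries absorbing, mucus-making and endocrine cells. The distal colon completes the uptake of salt and water, in part through a sodium channel under hormonal control. Each region gave 1 library from the pooled material of 7 rats, so there is no spread between animals, no test was made, and every difference below compares these 2 libraries. The deposited levels were taken as FPKM, that is, fragment numbers corrected for the length of the transcript and the size of the library. A gene was called measured when it reached 1 FPKM in at least 1 library. A measured gene was called distal-high when its ratio of distal to proximal FPKM, with 1 FPKM added to each, was 2 or more, and proximal-high when the opposite ratio was. Genes with neither are described as less than 2-fold apart.

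The working name of the group, distal-restricted surface and secreted genes, described only some of its members. Sval1, a secreted protein related to seminal vesicle antigen and prolactin-induced protein, and Scgb1a1, the small secreted protein known from club cells of the airway, are secreted. Vsig1, a junctional membrane protein of the immunoglobulin superfamily known from stomach epithelium, Cd9, a tetraspanin that gathers partner proteins in the membrane, and Cd24, a small glycosylated protein held by a lipid anchor, are at the cell surface. Tgm3, an enzyme that cross-links proteins in skin and hair, Ndrg2, a cytoplasmic protein linked to slower growth in cultured cells, and Ckmt1b, the mitochondrial creatine kinase that passes phosphate from ATP to creatine, work mainly inside cells. Restriction to the distal library was also partial, because 3 of the 8 (Cd9, Cd24 and Ckmt1b) had more than 50 FPKM in the proximal library. All 8 met the 2-fold limit, by their choice.

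Of the secreted pair, Sval1 had 1210 FPKM distal and 12.8 FPKM proximal, a 94.9-fold difference. Its rank among all genes by level was 33 distal and 5294 proximal. Scgb1a1 had 72.6 FPKM distal and 0.955 FPKM proximal, or 75.9-fold. Its proximal value rested on few reads. A value taken to mark a single read was 0.142 FPKM in that library for olfactory receptor genes of about 945 bases, and 0.955 FPKM is 6.75 times that step. Scgb1a1 has a shorter transcript, for which each read counts for more. Its authors' deposited log2 fold change of 6.25 carried an implied standard error of 0.85, larger than that of 98.9% of the genes with at least 20 FPKM in 1 library.

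Among the surface proteins, Vsig1 had 98.1 FPKM distal and 4.78 FPKM proximal (20.5-fold). Cd9 had 372 FPKM distal and 69.9 FPKM proximal (5.32-fold), and ranked 157 distal and 1119 proximal. Cd24 had 1717 FPKM distal and 501 FPKM proximal (3.43-fold). With ranks of 20 distal and 89 proximal, Cd24 was abundant at both ends of the colon.

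Among the enzymes and intracellular proteins, Tgm3 had 112 FPKM distal and 2.43 FPKM proximal (46.0-fold). Ndrg2 had 99.3 FPKM distal and 12.96 FPKM proximal (7.66-fold). Ckmt1b had 1305 FPKM distal and 636 FPKM proximal (2.05-fold), with ranks of 28 distal and 66 proximal. Its ratio sat at the edge of the 2-fold limit and was below it when the libraries were rescaled, with a log2 ratio of 0.93 with the median ratio set to 0 and 0.86 with equal upper quartiles. Together the 8 genes summed to 4985 FPKM distal and 1240 FPKM proximal, which is 1.08% of the FPKM of all genes distal and 0.3004% proximal.

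**Figure D1:**
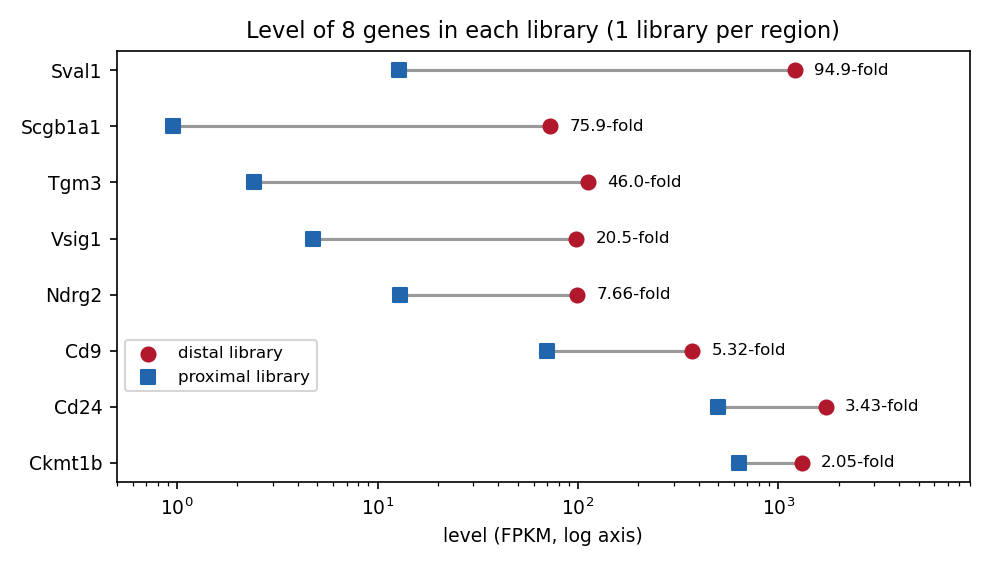
Level of each of the 8 genes in FPKM on a log axis, with a red circle for the distal library and a blue square for the proximal library, 1 library per region, ordered by fold. Sval1 lies at 1210 FPKM distal and 12.8 FPKM proximal, whereas Ckmt1b lies at 1305 FPKM distal and 636 FPKM proximal and is 2.05-fold apart.

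By ratio there were 4 genes with more than 20-fold (Sval1, Scgb1a1, Tgm3 and Vsig1) and 4 with less than 10-fold (Ndrg2, Cd9, Cd24 and Ckmt1b). In the proximal library 5 genes had under 15 FPKM, the 4 with the wider ratios and Ndrg2. In order of distal level the genes ran Cd24, Ckmt1b, Sval1, Cd9, Tgm3, Ndrg2, Vsig1 and Scgb1a1. In order of proximal level they ran Ckmt1b, Cd24, Cd9, Ndrg2, Sval1, Vsig1, Tgm3 and Scgb1a1. Tgm3, Ndrg2 and Vsig1 lay between 98.1 and 112 FPKM in the distal library, and without replicates no order among them can be given beyond these values.

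The promoters of the 8 genes, a property that the choice did not use, are described next beside these ratios. Promoter windows of 250 bases before to 50 bases after each annotated start were taken from RefSeq on the GRCr8 build, where all 8 genes were found, Ckmt1b under its current symbol Ckmt1. Ndrg2 has 2 starts in that table. CpG pairs are sites of DNA methylation, and promoters of broadly active genes are often rich in them. The ratio of observed to expected CpG was 0.0835 for Sval1, 0.0857 for Vsig1, 0.282 for Scgb1a1 and 0.287 for Tgm3. It was 0.444 for Ckmt1b, 0.739 for Cd9, 0.833 for Cd24, and 0.656 and 0.551 for the first and second Ndrg2 start. The median of all 33469 promoter windows was 0.392. The 4 genes more than 20-fold apart lay below that median and the 4 genes less than 10-fold apart lay above it. Scgb1a1, Tgm3 and Ckmt1b lay nearer to the middle, with lower ratios in 38.3%, 39.0% and 54.6% of the windows. GC content ran alongside, at 40.0% for Sval1 and Vsig1, 48.3% for Tgm3, 50.3% for Scgb1a1, and 62.7% or more for the others, against a median of 51.7%. With 8 chosen genes this is a description, and no test of it was made.

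**Figure D2:**
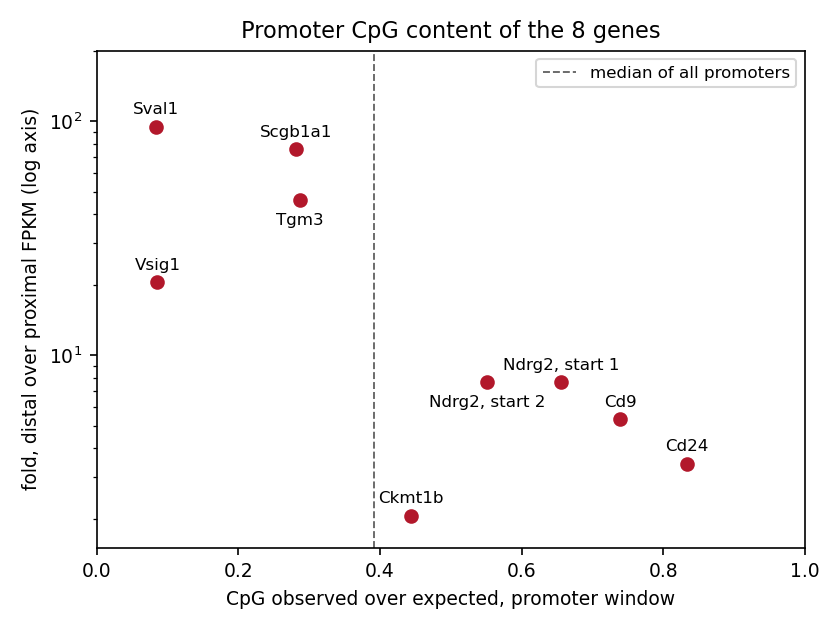
Ratio of observed to expected CpG in each promoter window (horizontal) against the distal over proximal fold of the gene (vertical, log axis), with the dashed line at the median of all promoter windows. Sval1, Vsig1, Scgb1a1 and Tgm3 lie left of the line at 20.5-fold or more, and the other genes lie right of it at 7.66-fold or less.

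The 250 bases before the start are shown for the promoter with the lowest CpG ratio among the 8 and for that with the highest, 5′ to 3′, with CpG pairs in capitals. The Sval1 stretch, on the plus strand at chr4:71811613-71811862 of GRCr8, holds 1 CpG, and the Cd24 stretch, on the plus strand at chr20:48656227-48656476, holds 28.
Sval1: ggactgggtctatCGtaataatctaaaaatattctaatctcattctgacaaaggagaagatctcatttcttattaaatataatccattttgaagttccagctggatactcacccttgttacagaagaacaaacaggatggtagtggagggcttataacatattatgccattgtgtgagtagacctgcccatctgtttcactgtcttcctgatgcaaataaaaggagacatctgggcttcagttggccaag
Cd24: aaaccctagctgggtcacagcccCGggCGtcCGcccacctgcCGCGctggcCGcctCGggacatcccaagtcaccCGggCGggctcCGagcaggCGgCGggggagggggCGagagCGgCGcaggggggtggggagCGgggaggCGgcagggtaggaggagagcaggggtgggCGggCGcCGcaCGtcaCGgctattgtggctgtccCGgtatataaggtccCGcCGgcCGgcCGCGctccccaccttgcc

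Exact matches to 7 motifs were searched on both strands of the promoter windows. The letters TATAAA, searched for the TATA box, were found in 14.2% of all windows. They were found in those of 3 members, Scgb1a1, Tgm3 and the second start of Ndrg2. In the first of these the match spanned positions -41 to -36 from the start, and in Tgm3 -37 to -32. In Ndrg2 it lay on the opposite strand, at -35 to -30. Other spellings of the box were not searched, and the Cd24 stretch above holds tatataag. A site of the gut factors Cdx1 and Cdx2 (TTTATG, in 12.7% of all windows) was matched in Scgb1a1 at -151 to -146 and in the first Ndrg2 start at -86 to -81. A FOXA site (TGTTTAC, in 3.78% of all windows) was matched in the second Ndrg2 start at -160 to -154. No member window held the HOX13 letters TTTTATNGG (1.13% of all windows), the KLF letters GGGTGTGG (3.22%), the HNF4 letters CAAAGTCCA (0.391%) or the response element shared by the glucocorticoid and mineralocorticoid receptors (0.0568%). Matches are letters in these windows only. The pair of members with the highest ratios among those with TATAAA is shown here with each match in capitals. The Scgb1a1 stretch is on the minus strand at chr1:215409687-215409936 of GRCr8 and includes the Cdx match, and the Tgm3 stretch is on the plus strand at chr3:137681559-137681808.
Scgb1a1: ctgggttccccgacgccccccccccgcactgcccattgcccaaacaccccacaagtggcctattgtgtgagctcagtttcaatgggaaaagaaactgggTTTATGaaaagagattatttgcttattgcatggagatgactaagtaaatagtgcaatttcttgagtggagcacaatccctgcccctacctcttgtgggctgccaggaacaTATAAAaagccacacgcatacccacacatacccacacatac
Tgm3: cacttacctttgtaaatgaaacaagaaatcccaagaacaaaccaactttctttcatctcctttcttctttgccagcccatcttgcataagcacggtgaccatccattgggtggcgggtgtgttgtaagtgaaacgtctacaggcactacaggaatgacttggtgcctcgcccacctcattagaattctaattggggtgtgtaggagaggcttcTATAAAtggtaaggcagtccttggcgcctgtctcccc

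The authors' deposited table marked 6 of the 8 as significantly different and left Cd24 and Ckmt1b unmarked. In that table, 2.73% of the tested genes were marked as higher in the distal library, and since the same contrast chose the members nothing is read from their count. Sval1 had a log2 fold change of 6.57 in the authors' deposited table, with an implied standard error of 0.51. For Vsig1 it gave 4.36 with 0.45 and for Tgm3 5.52 with 0.47, as the authors' deposited values. The authors' deposited log2 fold change of Cd9 was 2.41 with an implied standard error of 0.32, and that of Ndrg2 was 2.94 with 0.35. Cd24 stood at 1.78 with 0.61 and a q of 0.0616 in the authors' deposited table, and Ckmt1b at 1.04 with 0.53 and a q of 0.402. The errors implied by the authors' deposited table for Cd24 and Ckmt1b were larger than those of 97.3% and 95.7% of the genes with at least 20 FPKM, where the median was 0.31. These errors come from the model behind the table and not from animals.

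Other genes shared the pattern. In the distal library 1254 genes were at least as high as Scgb1a1, the lowest of the 8 there. Of these, 85 also reached the ratio of Ckmt1b, the lowest of the 8, and 77 of the 85 were not members. The 77 include 5 microRNA genes at 0 in the proximal library, for which the ratio has no finite value. The microRNA genes Mir632 and Mir568 are among the 77 as well. Just inside that ratio stood Klf4, a factor of epithelial differentiation, with 356 FPKM distal and 171 FPKM proximal (2.09-fold). Just outside it stood Acss2, an acetyl-CoA synthetase, with 234 FPKM distal and 114 FPKM proximal (2.05-fold). Among all 9847 measured genes, 3.71% were distal-high and 3.91% proximal-high. Which share was larger turned with the amount added to each level, from 4.92% distal-high and 6.27% proximal-high with 0.1 FPKM to 1.99% distal-high and 1.28% proximal-high with 5 FPKM. Among the 1254 genes at or above the distal level of Scgb1a1, 7.02% were distal-high.

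**Figure D3:**
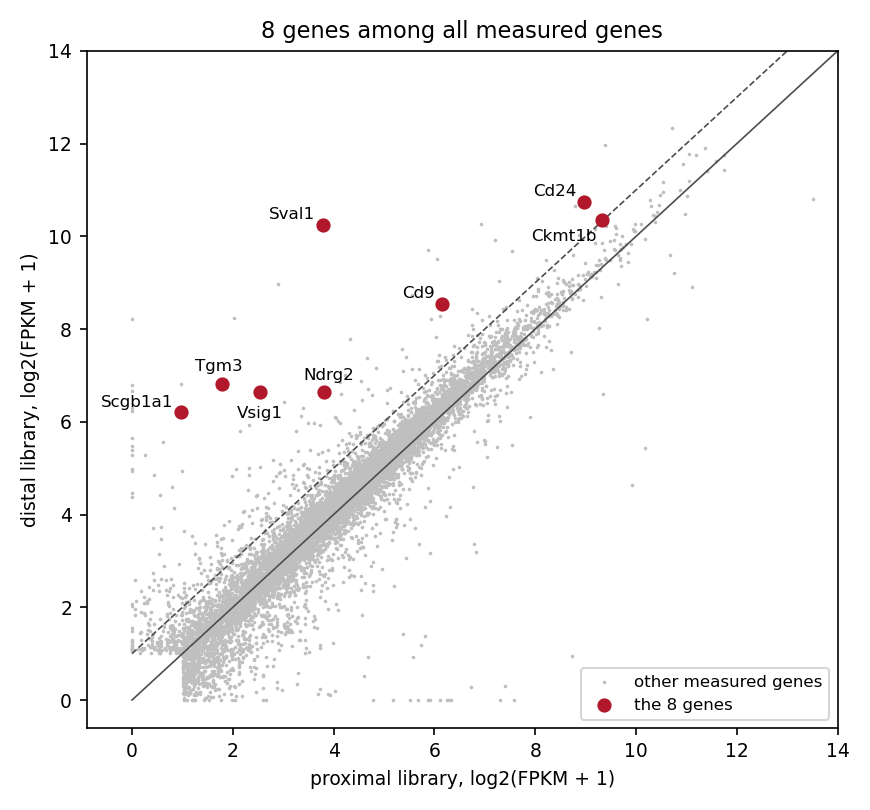
Each measured gene by its log2(FPKM + 1) in the distal library (vertical) and in the proximal library (horizontal), with the 8 genes in red, the solid line at equal values and the dashed line at 2-fold higher in the distal library. Sval1, Scgb1a1, Tgm3 and Vsig1 stand far above the dashed line, and Ckmt1b lies on it.

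The genes nearest to each member in the plane of both libraries were found by Euclidean distance in log2(FPKM + 1), over 2 libraries only. Sval1 had no close companion, the nearest gene being B3gnt7, a glycosyltransferase, 1.55 away at 499 FPKM distal and 6.43 FPKM proximal. The next nearest to Sval1 was Retnlb, a goblet cell product, 2.16 away. Scgb1a1 lay 0.61 from Slc37a2, a sugar phosphate transporter with 111 FPKM distal and 0.961 FPKM proximal, and 0.72 from the sulfotransferase Chst5. Tgm3 lay 0.77 from Vsig1 itself and 0.81 from Slc37a2, and Vsig1 lay 0.52 from Eno3, a muscle-type enolase with 84.6 FPKM distal and 7.03 FPKM proximal, and 0.72 from the annexin Anxa1. Cd24 was 0.21 from Tff3 (1618 FPKM distal, 438 FPKM proximal) and 0.34 from Clca1 (1992 FPKM distal, 417 FPKM proximal), and Ckmt1b was 0.15 from Zg16 (1195 FPKM distal, 676 FPKM proximal) and 0.23 from the tetraspanin Tspan1. Cd9 lay 0.27 from lactoperoxidase, Lpo, and 0.39 from Hgfac, and Ndrg2 lay 0.35 from Nrgn and 0.40 from the water channel Aqp3.

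Relatives of the 8 genes were mostly less than 2-fold apart. In 9 lists of family and pathway genes, 83 genes other than the members were in the table and 54 were measured. Of these 54, 4 were distal-high (7.41%, against 3.71% of all measured genes) and 3 were proximal-high. Their median log2 ratio was 0.23, against 0.09 over all measured genes.

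In the families of the secreted proteins and of Tgm3, the member was alone at a high level. Sval2 and Pip, the relatives of Sval1, were listed at 0 in both libraries. The other 5 secretoglobins were all below 1 FPKM in both libraries, the highest being Scgb3a1 at 0.602 FPKM distal and 0 FPKM proximal and Scgb3a2 at 0 FPKM distal and 0.559 FPKM proximal. Among 5 transglutaminase relatives, the prostate-type enzyme Tgm4 was the only measured gene, at 3.90 FPKM distal and 3.96 FPKM proximal. Tgm2, the widely expressed tissue transglutaminase, had 0.322 FPKM distal and 0.784 FPKM proximal.

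Vsig1 had a close relative with the same direction. Vsig2, another junction-like protein of the CTX immunoglobulin family, had 30.4 FPKM distal and 3.17 FPKM proximal (9.58-fold). Esam, known from endothelial junctions, had 22.9 FPKM distal and 6.54 FPKM proximal (3.496-fold). The authors' deposited table marked both as significant. The abundant gut antigen Gpa33 was less than 2-fold apart, at 536 FPKM distal and 421 FPKM proximal, as were the virus receptor gene Cxadr (40.1 FPKM distal and 37.6 FPKM proximal) and F11r, which encodes a tight junction protein (176 FPKM distal and 113 FPKM proximal). Of the 7 measured relatives, 2 were distal-high and none was proximal-high, against 3.71% and 3.91% of all measured genes. Nothing is read from counts this small.

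Most tetraspanin relatives of Cd9 were somewhat higher in the distal library, 18 of 21 measured by any amount, and Tspan8, Cd37 and Cd53 were lower. Their median log2 ratio was 0.33, against 0.09 over all measured genes. At the 2-fold limit 1 was distal-high and 2 were proximal-high. Of 21 measured relatives, Tspan33 was the distal-high one, at 27.2 FPKM distal and 10.3 FPKM proximal (2.64-fold). Tspan5 (2.54 FPKM distal, 0.841 FPKM proximal) and Upk1a (1.14 FPKM distal, 0.361 FPKM proximal) had larger plain ratios, of 3.02 and 3.17, at lower levels. With 0.1 FPKM in place of 1 FPKM added to each level, 4 tetraspanins were distal-high in place of 2, Cd9 included. Cd37 had 1.92 FPKM distal and 11.7 FPKM proximal, and Cd53 had 1.12 FPKM distal and 6.52 FPKM proximal. Cd37 and Cd53 are tetraspanins of white blood cells. Markers of B and T lymphocytes had the same direction, with 4 of 6 measured markers proximal-high. All 8 lymphocyte markers together summed to 10.98 FPKM distal and 39.6 FPKM proximal. Their part in the values of Cd37, Cd53, Cd9 or Cd24 was not tested. In a bulk library, fewer cells of a type and less RNA per cell cannot be told apart. The more abundant epithelial tetraspanins were less than 2-fold apart, with Tspan8 at 977 FPKM distal and 1151 FPKM proximal, Tspan1 at 1144 FPKM distal and 581 FPKM proximal and Cd63 at 775 FPKM distal and 427 FPKM proximal. Cd81, another tetraspanin and also listed as a partner of Cd9, had 127 FPKM distal and 70.6 FPKM proximal. Of 7 partner genes of Cd9, none was 2-fold apart, with Epcam at 1991 FPKM distal and 1490 FPKM proximal, the integrin chain Itgb1 at 87.6 FPKM distal and 82.6 FPKM proximal and the CD9 partner Ptgfrn at 29.2 FPKM distal and 27.7 FPKM proximal.

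Of 13 measured genes for lipid-anchored surface proteins other than Cd24, Cd59, an inhibitor of complement, was the only distal-high one, at 191 FPKM distal and 94.7 FPKM proximal. Its ratio was below 2-fold when the libraries were rescaled, as was that of Ckmt1b. Cd48, a leukocyte protein, had 1.63 FPKM distal and 5.85 FPKM proximal. Cd55, another complement inhibitor, had 71.1 FPKM distal and 60.6 FPKM proximal.

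The other Ndrg genes were less than 2-fold apart. Ndrg1 had 104 FPKM distal and 145 FPKM proximal, Ndrg3 had 6.34 FPKM distal and 7.41 FPKM proximal, and Ndrg4 had 2.52 FPKM distal and 2.14 FPKM proximal. Creatine genes other than Ckmt1b were less than 2-fold apart where measured. The cytosolic creatine kinase Ckb had 421 FPKM distal and 248 FPKM proximal (1.70-fold). The creatine transporter gene Slc6a8 had 114 FPKM distal and 81.1 FPKM proximal, and Gamt, the second enzyme of creatine synthesis, had 39.2 FPKM distal and 36.4 FPKM proximal. Gatm, the first enzyme, was near 0 at 0.210 FPKM distal and 0.496 FPKM proximal, and the muscle forms Ckm and Ckmt2 were listed at 0 in both. Ckmt1b and Ckb were the creatine kinases with a level above 0.

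**Figure D4:**
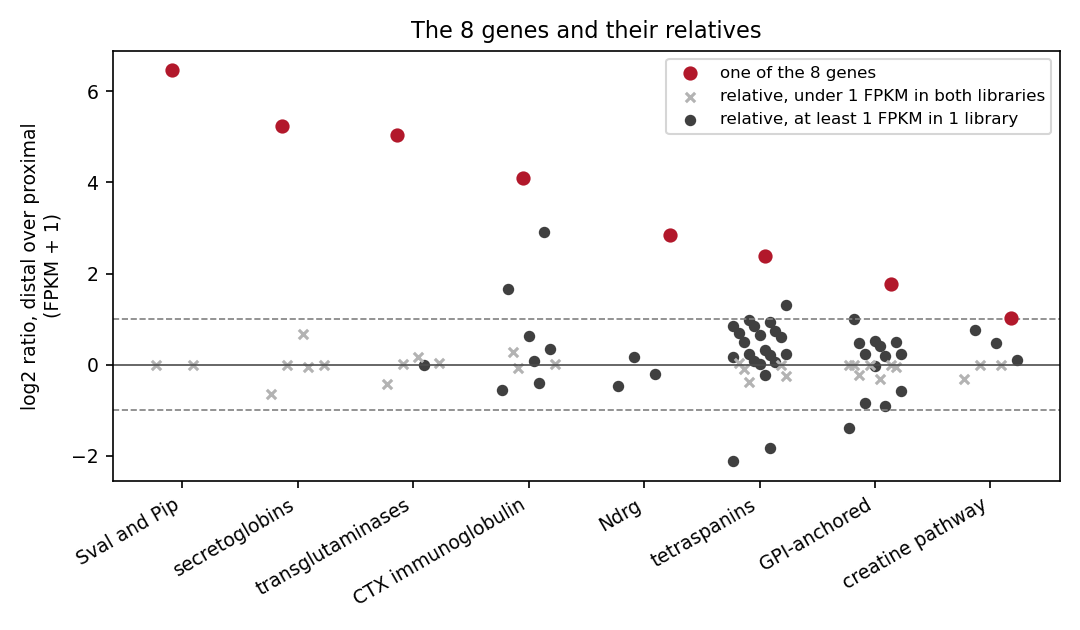
Log2 ratio of distal over proximal (FPKM + 1) for the 8 genes in red and their relatives in black (at least 1 FPKM in 1 library) or as grey crosses (under 1 FPKM in both), by list, with dashed lines at 2-fold either way. In the Sval, secretoglobin and transglutaminase lists a single red point stands high while the relatives lie near 0 in level or ratio.

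The loci of the 8 genes were spread over 6 chromosomes, given here for the rn4 build of the table, and none overlapped another gene in it. Sval1 lies on chromosome 4 at 69704695 to 69724611, and Cd9 on the same chromosome at 162279462 to 162312889, 92.6 Mb away. Ckmt1b lies on chromosome 3 at 108158887 to 108163888, and Tgm3 at 117622727 to 117659103, 9.46 Mb away. Scgb1a1 lies on chromosome 1 at 211758103 to 211761651, Ndrg2 on chromosome 15 at 27338552 to 27347196, Cd24 on chromosome 20 at 47502354 to 47507663 and Vsig1 on chromosome X at 128750376 to 128782153. The loci include introns, and the deposited table holds no exon positions.

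For each member the 3 nearest measured genes on each side were taken, 48 genes in all, from 7.33 kb to 5693 kb away. Of these, 6 (12.5%) were distal-high, against 3.71% of all measured genes, and 2 were proximal-high. The latter were Clcn1, 328 kb from Sval1, and Xpnpep2, 5693 kb from Vsig1 and the farthest of the 48. The median log2 ratio of the 48 was 0.12. In this small number 3 of the 6 were neighbours of 1 gene, Ndrg2. They were Pnp, a purine-cleaving enzyme, at 197 FPKM distal and 82.1 FPKM proximal, and Ang1 and Rnase4, secreted ribonucleases, at 44.8 FPKM distal and 18.1 FPKM proximal and at 144 FPKM distal and 67.2 FPKM proximal. Ang1 and Rnase4 share 1 locus in the table, 248 kb from Ndrg2, so their values may hold reads of each other. The measured genes on the other side of Ndrg2, Zfp219, Hnrnpc and Supt16h, were less than 2-fold apart.

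The other 3 were single genes beside Vsig1, Cd9 and Scgb1a1. Tsc22d3, a gene induced by steroid hormones, lies 410 kb from Vsig1 and had 69.2 FPKM distal and 9.27 FPKM proximal (7.46-fold). Scnn1a, the alpha subunit of the epithelial sodium channel, lies 810 kb from Cd9 and had 86.9 FPKM distal and 22.5 FPKM proximal (3.86-fold). Fads3, of the fatty acid desaturase family, lies 728 kb from Scgb1a1 and had 48.0 FPKM distal and 16.8 FPKM proximal (2.85-fold). In each case genes nearer to the member were less than 2-fold apart. Mid2, 155 kb from Vsig1, had 7.86 FPKM distal and 5.50 FPKM proximal, and Tnfrsf1a, 94.2 kb from Cd9, had 36.9 FPKM distal and 26.6 FPKM proximal. Psmd10, 8.58 kb from Vsig1, had 92.8 FPKM distal and 136 FPKM proximal. Its row spans only 128790730 to 128790898. Its authors' deposited log2 fold change of -0.556 carried an implied standard error of 0.725. When the nearest measured gene alone was taken on each side, 1 neighbour was distal-high, beside Ndrg2.

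Sval1, Tgm3, Cd24 and Ckmt1b had no distal-high neighbour. Ephb6, a receptor gene 373 kb from Sval1, had 2.71 FPKM distal and 1.19 FPKM proximal, a plain ratio of 2.27 that stayed under 2 with 1 FPKM added. The nearest rows to Sval1 were its relatives Sval2, 34.6 kb away, and Pip, 66.9 kb away, and on its other side the taste receptor genes Tas2r39 and Tas2r40, each listed at 0 in both libraries. Clcn1, a chloride channel gene 328 kb from Sval1, had 0.281 FPKM distal and 1.73 FPKM proximal. The nearest rows beyond Asrgl1 on one side of Scgb1a1 were Psbpc1 and Psbpc2, listed at 0 in both libraries. Ppip5k1, 7.33 kb from Ckmt1b, had 24.2 FPKM distal and 21.98 FPKM proximal, and Pdia3, 52.5 kb away, had 444 FPKM distal and 410 FPKM proximal. In the gene order of GRCr8, Tgm6 lies next to Tgm3, Vwf next to Cd9 and Strc next to Ckmt1, and these were not analysed here.

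**Figure D5:**
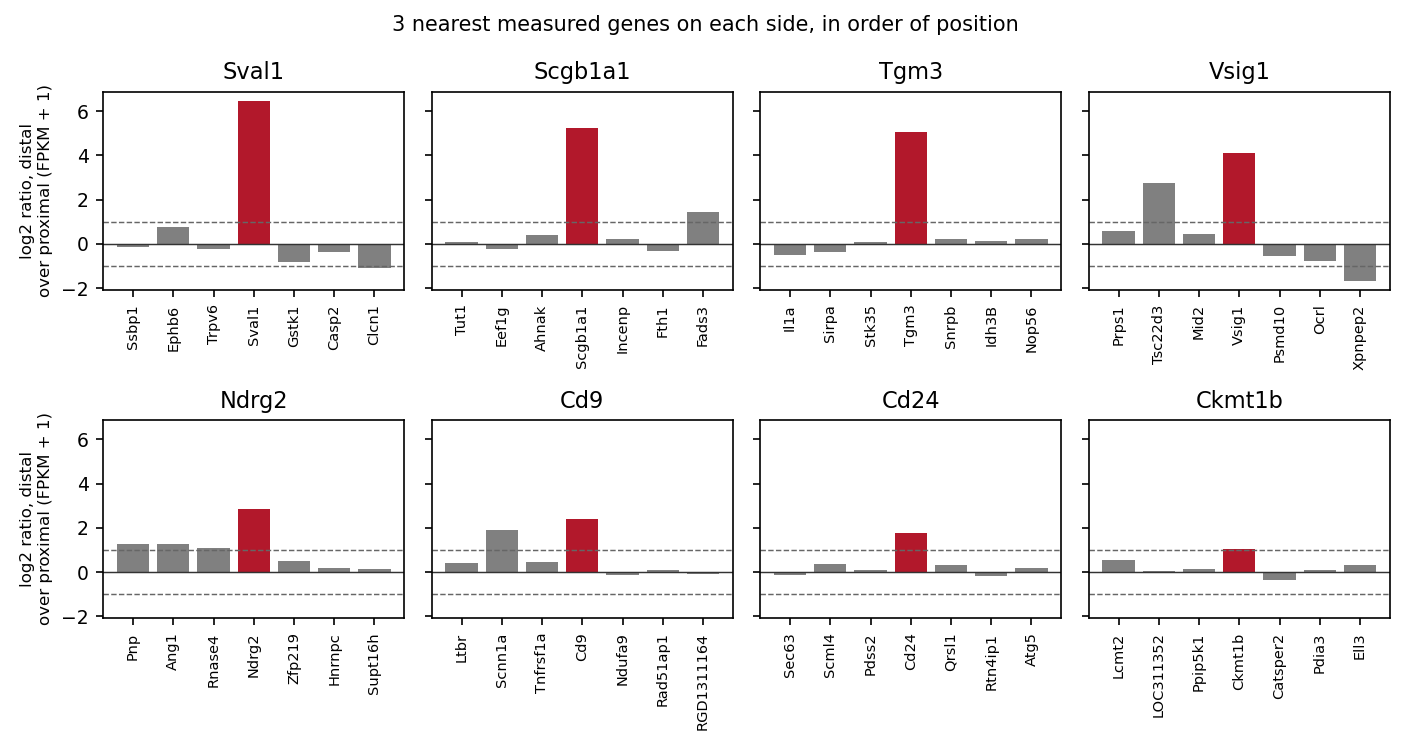
Log2 ratio of distal over proximal (FPKM + 1) for each of the 8 genes (red bar) and the 3 nearest measured genes on each side (grey bars, in order of position), with dashed lines at 2-fold either way. Tsc22d3 beside Vsig1 and Scnn1a beside Cd9 are the highest grey bars, and the neighbours of Tgm3, Cd24 and Ckmt1b lie between the dashed lines.

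Some of the 8 genes are best known from other tissues, and markers of those tissues were examined. All 8 squamous markers in the table were below 1 FPKM in both libraries, although Tgm3 is known from skin, with a summed level of 1.21 FPKM distal and 1.17 FPKM proximal and Krt14, Krt1, Dsg3 and Ivl listed at 0. Gastric markers summed to 2.11 FPKM distal and 1.77 FPKM proximal over 7 genes, although Vsig1 is known from stomach. Gkn1 and Cldn18 were listed at 0. The 2 measured ones differed in direction, with Gkn2 at 1.18 FPKM distal and 0.176 FPKM proximal and Tff1 at 0.571 FPKM distal and 1.35 FPKM proximal. Neither reached the 2-fold limit. With 0.1 FPKM added to each level, 1 gastric marker was distal-high and 1 proximal-high. Airway markers summed to 4.79 FPKM distal and 0.885 FPKM proximal over 6 genes, of which Scgb3a1 and Scgb3a2 are also in the secretoglobin list, with Sftpb, Sftpd and Bpifa1 listed at 0. Cyp2f4, an airway cytochrome P450 and the only airway marker measured, had 4.19 FPKM distal and 0.327 FPKM proximal. It was distal-high, the direction of Scgb1a1, and was marked as significant in the authors' deposited table (q of 0.000245). With 5 FPKM added to each level it was not distal-high. Nerve and glia markers summed to 1.04 FPKM distal and 1.84 FPKM proximal over 4 genes. The 7 stromal, muscle and endothelial markers summed to 13.5 FPKM distal and 17.02 FPKM proximal. Among them the muscle marker Des was distal-high, at 2.91 FPKM distal and 0.0398 FPKM proximal. Myh11, another muscle marker of the list, had 1.37 FPKM distal and 1.36 FPKM proximal. The authors' deposited table marked Des as significant, and with 5 FPKM added to each level it was not distal-high. Vim, the highest of the list, had 7.07 FPKM distal and 13.6 FPKM proximal, while Col1a1 and Col3a1 were below 0.5 FPKM in both.

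Epithelial markers were high in both libraries, whose labels name crypts as the source. All 10 crypt epithelium markers, among them Epcam, Cdh1, Krt8, Vil1 and Cdx2, had at least 67.5 FPKM distal and 39.1 FPKM proximal and differed by less than 2-fold, with a median log2 ratio of 0.23. Of 7 goblet cell markers, 3 were distal-high (Clca1, Fcgbp and Tff3) and 1 was proximal-high (Spink4, at 68.0 FPKM distal and 236 FPKM proximal). Among all measured genes 3.71% were distal-high and 3.91% proximal-high. The authors' deposited table marked Tff3 as significant and left Clca1, Fcgbp and Spink4 unmarked. The goblet list summed to 7430.5 FPKM distal and 3454 FPKM proximal. Tuft cell markers, of interest because Cd24 is high in that cell type, were less than 2-fold apart in all 6 measured cases and summed to 48.7 FPKM distal and 32.7 FPKM proximal. The part of any of these cell types in the values of the 8 genes was not tested.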

How the data were processed

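The 2 RNA libraries, 1 per region, were grouped by their titles, and 5 chromatin immunoprecipitation libraries stayed outside the comparison. CASAVA, TopHat2 and build rn4 are named for the RNA samples in the submitters' processing notes, and no source used here names the program behind the table. The authors' deposited levels were read as FPKM because they are not whole, come at the low end in steps that depend on the gene, and differ in sum between libraries (463340 distal and 412814 proximal). Such values leave the depth of each library unknown. The deposited table also holds the authors' log2 fold change, test statistic, p-value and q-value. That p-value and a normal tail on both sides of the statistic differ by at most 2.76e-06, so the log2 fold change divided by that statistic was used as an implied standard error.

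Of 16492 rows, 23 with another status than tested or not tested and 1 repeated gene were left out. Locus starts were raised by 1, since 1186 of 1187 olfactory receptor loci then had a length that is a multiple of 3. A log2 ratio has 1 FPKM added to each level, so low genes appear closer than they are. Folds printed beside FPKM are plain ratios. Of the genes kept, 1297 share a locus with another gene. CpG ratios are CpG count times window length over the product of C and G counts. Named genes were the members, their neighbours, the highest or at least 2-fold apart members of the lists, the 2 nearest genes to each member, and the genes at the edge of the lowest member ratio; a few others of the lists were named after their values were seen. Members and lists were chosen with earlier results of these data known. The ratio and motif search were tested on artificial data. Python 3.11.15, pandas 2.3.3, numpy 2.4.6, scipy 1.17.1 and matplotlib 3.10.9 were used. Alternatives covered the pseudocount, the minimum level, the scaling of the libraries, genes sharing a locus, the number of neighbours, the limits of the members and the promoter length.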

Additional observations from a re-analysis of the deposited data

How the results depend on the processing

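With 1 library per region there was no replicate to leave out. No paired analysis was possible because each region has 1 library. An equal amount added to both levels cannot reverse a ratio. The scalings multiplied the distal values by 0.93 and 0.89, too little to reverse the lowest fold of 2.05. All 8 genes therefore stayed higher in the distal library by their choice, and nothing is read from it. Scgb1a1 had a log2 ratio of 6.11 with 0.1 FPKM added to each level. With 5 FPKM added it had 3.70, Vsig1 had 3.40 and Tgm3 had 3.97. Of all measured genes, 4.92% were distal-high with 0.1 FPKM added, 1.99% with 5 FPKM added, 3.15% with the median ratio set to 0, 2.88% with equal upper quartiles and 2.22% with no minimum level. The proximal-high share was 6.27% with 0.1 FPKM added, 1.28% with 5 FPKM added, 4.34% with the median ratio set to 0, 4.71% with equal upper quartiles, 2.98% with a minimum of 5 FPKM and 2.34% with no minimum. Equal upper quartiles moved the median log2 ratio of all measured genes by -0.16. Under that scaling 3 relatives were distal-high and 4 proximal-high, and the median of the CD9 partners was -0.085. Distal-high neighbours numbered 2 with no minimum level, 1 with the nearest gene on each side, and 4 to 8 under the other settings. With limits at the second lowest member values, 34 genes were as high and as far apart in place of 85. In these cases the cause was not tested. Read numbers were not used here, which limits every low value.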
